A study of Mus musculus with 4 samples.

Results

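The genes described here are 28 that mark the choroid plexus, from Ttr to Krt18, and 6 that mark the motile cilia of the ependyma, from Foxj1 to Tekt1. They were listed by name as markers of these cell types, with earlier results of these data known, as a measure of how much ventricle tissue each RNA pool held. The scanner files hold 37324 genes by name, and all 34 members were found there, on 62 probes. Every member was well above background on all 4 arrays.

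Expression was measured in hippocampus of wild-type (WT) mice and of mice labelled Rp58 hetero-KO, in which 1 copy of that gene is knocked out. Rp58, now named Zbtb18, encodes a zinc finger repressor of transcription that acts in developing and adult neurons. The animals were 4 or 18 months old by their age label, which gives 4 groups: WT at 4 months, hetero-KO at 4 months, WT at 18 months and hetero-KO at 18 months. Each group was 1 one-colour Agilent array of RNA pooled from 3 samples, and all 4 arrays lay on 1 slide and share 1 scan time. Since a group holds 1 array, no difference of 1 array from another could be checked in a replicate, and none carries a test. The mutant allele, the mouse strain, the dissection and whether each pooled sample was 1 animal are not given in the sources used here.

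The choroid plexus is a secretory epithelium that hangs into the brain ventricles, makes cerebrospinal fluid and releases transthyretin and other proteins into it. The ependyma is the layer of multiciliated cells that lines the ventricles, and its beating cilia move the fluid. Neither tissue is part of the hippocampus proper, but the choroid plexus of the lateral ventricle attaches along the fimbria at its edge and the ependyma covers the side that faces the ventricle. In a bulk sample such as this, fewer cells of a type and less RNA per cell cannot be told apart.

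Some facts of the whole series touch what follows. Levels are the background-corrected signal divided by the array's 75th percentile, which lay between 1714 and 2111 signal units, with 77.9% to 81.9% of spots well above background. The level of Zbtb18 itself was 17.5 (WT) and 15.2 (hetero-KO) at the younger age, against 18.9 and 21.4 at the older one, so that the probe did not separate the genotypes; which part of the gene was removed is not given, so this does not check the labels. The pools also differ in their sex-linked RNA. Eif2s3y, a Y-linked gene, had levels of 0.673 (WT) and 0.00168 (hetero-KO, not well above background) at 4 months, and of 1.30 and 1.33 at 18 months. Xist, transcribed from the inactive X chromosome, was at 0.164 and 0.231 on the 4-month arrays and under the background test on the 18-month ones. The part of sex in the differences below was not tested, and on the 18-month scanner arrays the pools were alike in these genes.

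The sources disagree on the 18-month samples, and the member genes are among those that differ between them. The authors' deposited table has 1 column per sample, and its 4-month columns are constant multiples of the 4-month scanner files. Its 18-month columns are no multiple of any scanner file. In these columns of the authors' deposited table the choroid plexus genes stood far below their scanner values, by a median of 11.6-fold in WT and 14.8-fold in hetero-KO, and the ependymal cilia genes by 4.70-fold and 3.88-fold. The medians over all 27357 genes measured on all arrays were 1.07-fold and 1.05-fold. Markers of hippocampal neurons were lower as well in the authors' deposited table, by a median of 6.19-fold in WT and 6.46-fold in hetero-KO over 13 genes. Eif2s3y in the same table was at 0.609 in the 18-month WT column and 0.00258 in the hetero-KO column, close to the 4-month arrays and unlike the 18-month scanner files. Which of the sources holds the labelled 18-month hippocampus samples cannot be told from the files, so results at 18 months are given from the scanner files, and the table's medians for each gene list are given with them or further on.

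At both ages the choroid plexus genes were lower in hetero-KO than in WT. At 4 months 27 of 28 were lower, with a median log2 difference of −0.45, or 1.36-fold. At 18 months all 28 were lower, with a median of −0.76, or 1.70-fold. Of all genes measured, 55.6% were lower at 4 months and 52.0% at 18 months, with medians of −0.02 and −0.01. The 6 ependymal cilia genes were lower at both ages too, with medians of −0.42 at 4 months and −0.39 at 18 months.

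The size of these shifts was small gene by gene. No member was lower by 2-fold or more at 4 months, where 0.648% of all genes were, and 1 member, F5, was at 18 months, where 0.619% of all genes were. The scanner software's error of a single spot comes to 0.20 on the log2 scale for a difference of 2 arrays, and 31 of the 34 members exceeded it at 4 months, against 25.0% of all genes, and 33 at 18 months, against 23.8%. This error covers the reading of a spot and not the spread between mice. The members shared a direction: 33 of 34 were lower in hetero-KO at both ages, against 34.9% of all genes. For 31 of 34 both WT arrays were above both hetero-KO arrays, against 21.1% of all genes. This direction was not particular to the 34. Of further genes of the same cell types, 19 of 21 choroid plexus and 35 of 40 motile cilia genes were lower at both ages. At 4 months marker lists of other tissues, given further on, were lower as well. The members were read from the same 4 RNA pools, so these counts are not independent of each other.

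**Figure D1:**
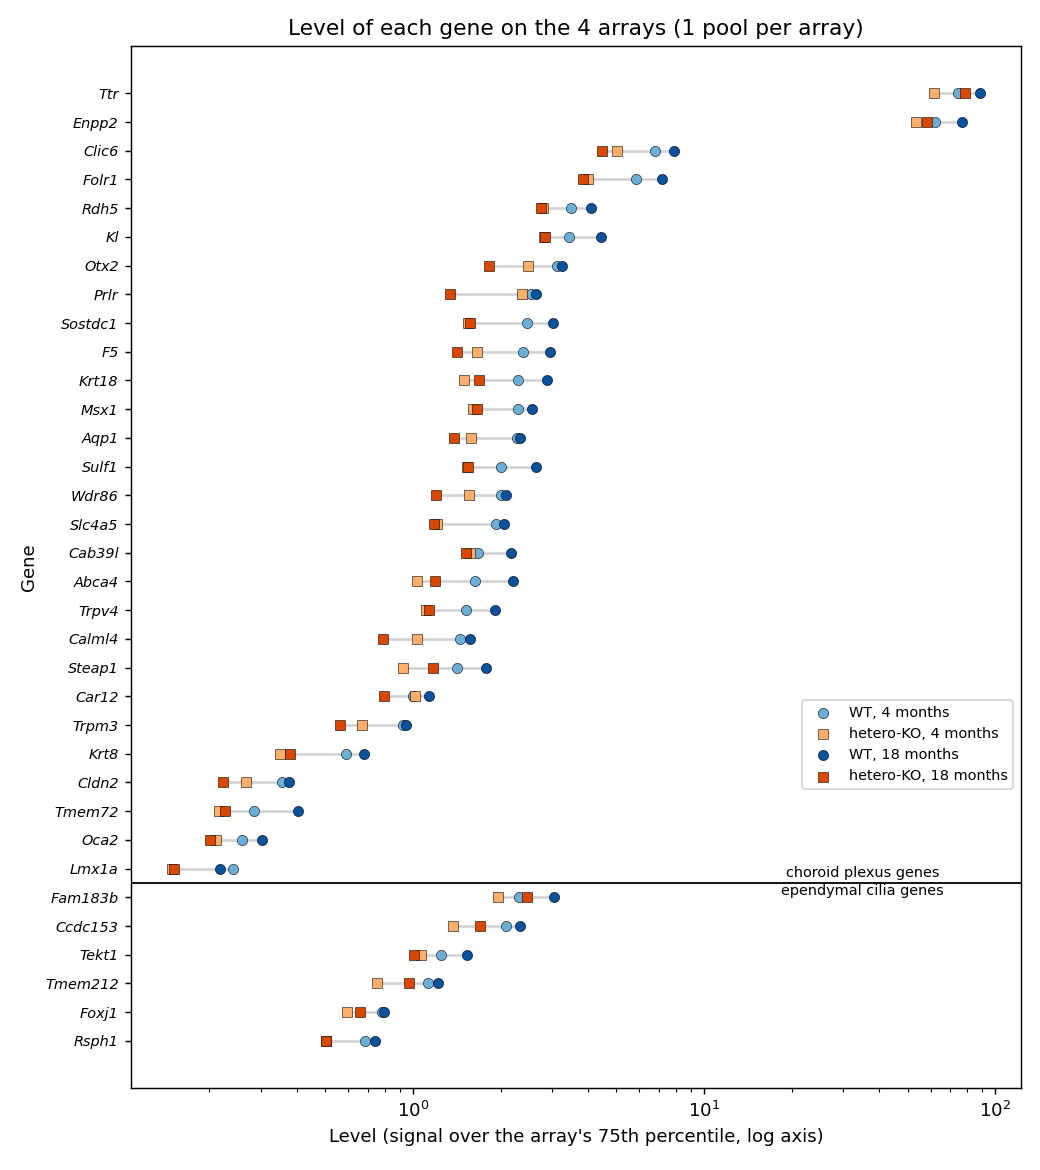
Level of each of the 34 genes (signal over the array's 75th percentile, log axis) on the 4 arrays, with circles for WT, squares for hetero-KO, light colours for 4 months and dark colours for 18 months; each point is 1 array of pooled RNA. The WT circles lie to the right of the hetero-KO squares for 31 of 34 genes, and the 18-month WT array is the highest for 33.

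The additive limma model of genotype and age, which uses all 4 arrays with 1 residual degree of freedom, passed none of the 34 members for genotype after Benjamini-Hochberg adjustment over 29067 genes. The rule passed 3 genes in all, or 0.0103% of those tested. The lowest adjusted p among members was 0.133 by limma, for Slc4a5, and the highest was 0.531, for Car12. At an unadjusted p under 0.05, 32 of 34 members were lower in hetero-KO by limma, against 6.29% of all genes. A gap that widens or narrows with age enters this fit as noise, and the p-values refer to 4 pools rather than to mice.

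Among the secreted products of the choroid plexus, F5 and Sostdc1 showed wide gaps between genotypes. F5, coagulation factor V, had levels of 2.38 (WT) and 1.66 (hetero-KO) at 4 months, and of 2.97 and 1.41 at 18 months. The hetero-KO pools were the lower ones at both ages, by 1.43-fold and 2.10-fold. Sostdc1, a secreted antagonist of BMP and Wnt signalling, had levels of 2.46 and 1.55 at 4 months and of 3.03 and 1.57 at 18 months. Its hetero-KO arrays were nearly level with each other and both below WT, by 1.59-fold and 1.93-fold. The additive fit gave Sostdc1 a genotype log2 difference of −0.81 ± 0.08 (SE) with an adjusted p of 0.143 (limma).

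Ttr, Enpp2 and Kl, also secreted or shed, differed less. Ttr, transthyretin, which carries thyroxine and retinol-binding protein, had levels of 74.2 (WT) and 61.7 (hetero-KO) at 4 months and of 88.7 and 78.9 at 18 months. The log2 differences were −0.27 and −0.17, and the second was the smallest of the choroid plexus genes at 18 months. Enpp2, or autotaxin, which makes lysophosphatidic acid and is also expressed by oligodendrocytes, had levels of 61.9 and 53.3 at 4 months and of 77.1 and 58.2 at 18 months. Its hetero-KO arrays were lower by 1.16-fold and 1.33-fold. Kl, or klotho, a co-receptor for fibroblast growth factor 23 that is also shed into the fluid, was lower by 1.22-fold and 1.56-fold. The 8 markers of oligodendrocytes had medians of −0.09 at 4 months and 0.04 at 18 months (−0.16 in the authors' deposited table).

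Ttr was the brightest member, and its probes did not give the same value. The probe used had a raw signal of 130197 to 153728 units, brighter than at least 99.6% of spots on each array; no spot was marked saturated. A second, dimmer Ttr probe read 21187 (WT) and 17538 (hetero-KO) at 4 months, against 23288 and 12465 at 18 months. At 18 months the dimmer probe gave a log2 difference of −0.88, where the brighter one gave −0.17, and at 4 months the probes differed by 0.10. Whether the bright probe is compressed near the top of its range was not tested.

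Transporters and channels of the epithelium were lower in hetero-KO with differences of similar size. Folr1, the folate receptor that moves folate into the fluid, had levels of 5.85 (WT) and 4.00 (hetero-KO) at 4 months, and of 7.17 and 3.83 at 18 months. Clic6, an intracellular chloride channel protein, had levels of 6.80 and 5.02, then 7.91 and 4.47. For both genes the 2 WT arrays were above the 2 hetero-KO arrays, as they were for 21.1% of all genes. Slc4a5, a sodium bicarbonate cotransporter, had levels of 1.93 and 1.21, then 2.05 and 1.18, with an additive genotype difference of −0.74 ± 0.06 (SE) on the log2 scale. Aqp1, the water channel of the apical membrane, was lower by 1.44-fold at 4 months and 1.68-fold at 18 months. The cation channels Trpm3 and Trpv4 were lower by 1.38-fold and 1.37-fold at 4 months, and by 1.68-fold and 1.69-fold at 18 months.

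Abca4, a lipid flippase of the ABC family known from photoreceptors, was lower by 1.58-fold and 1.85-fold. It is the one member with probes that differed by over 2-fold in a comparison: at 18 months a dim probe gave a log2 difference of 0.07, where the bright one gave −0.89 and another −0.94. Steap1, a metalloreductase-family membrane protein, was lower by 1.52-fold at both ages, and Oca2, a melanosome anion transporter, by 1.23-fold and 1.51-fold. Car12, a membrane-bound carbonic anhydrase, was the exception at 4 months, with levels of 0.999 (WT) and 1.01 (hetero-KO). At 18 months its levels were 1.13 and 0.797, a difference of −0.51 that exceeds the spot error.

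Transcription factors of the dorsal midline and the choroid plexus lineage followed the same direction. Otx2, a homeodomain factor that the choroid plexus also secretes, had levels of 3.14 (WT) and 2.49 (hetero-KO) at 4 months, and of 3.26 and 1.83 at 18 months. Its WT arrays were nearly level, and the 18-month hetero-KO array was the lowest. Msx1, a homeobox factor downstream of BMP signalling, was lower by 1.42-fold and 1.56-fold. Lmx1a, a LIM homeobox factor of the roof plate and of the cortical hem, was the dimmest member, at 0.242 and 0.149, then 0.218 and 0.151, lower by 1.63-fold and 1.45-fold. Lmx1a was 1 of the 3 choroid plexus genes with a larger fall at 4 months than at 18 months; the other two were Ttr and Steap1.

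Of the junction and cytoskeleton genes, the keratins gave some of the widest differences at 4 months. Krt8 and Krt18 encode the keratin pair of simple epithelia. Krt8 had levels of 0.589 (WT) and 0.350 (hetero-KO) at 4 months, and of 0.680 and 0.380 at 18 months. Krt18 had levels of 2.29 and 1.5, then 2.89 and 1.69. The pair moved alike, with additive genotype differences of −0.80 ± 0.07 and −0.69 ± 0.06 (SE) and adjusted p-values of 0.138 for both by limma. Cldn2, the claudin that makes tight junctions permeable to cations, was lower by 1.33-fold at 4 months and 1.68-fold at 18 months.

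Prlr, the prolactin receptor, and Cab39l, a scaffold of the STK11 kinase complex, stood apart at 4 months. Prlr had levels of 2.54 (WT) and 2.37 (hetero-KO) at 4 months, and of 2.64 and 1.34 at 18 months. Its 4-month arrays lay within the spot error of each other, and the 18-month hetero-KO array was 1.97-fold below its WT array. Cab39l differed by −0.10 at 4 months and by −0.51 at 18 months. Over the other membrane and cytoplasmic genes, Tmem72, Wdr86, Calml4, Sulf1 (a heparan sulfatase) and Rdh5 (a retinol dehydrogenase), differences ran from −0.31 to −0.48 at 4 months and from −0.56 to −0.99 at 18 months, the last for Calml4, a calmodulin-like protein. The gap was wider at 18 months for 25 of the 28 choroid plexus genes. Over all genes measured on all arrays, the difference was more negative at 18 than at 4 months for 13200 of 27357. With 1 array per group this change with age has no test.

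**Figure D2:**
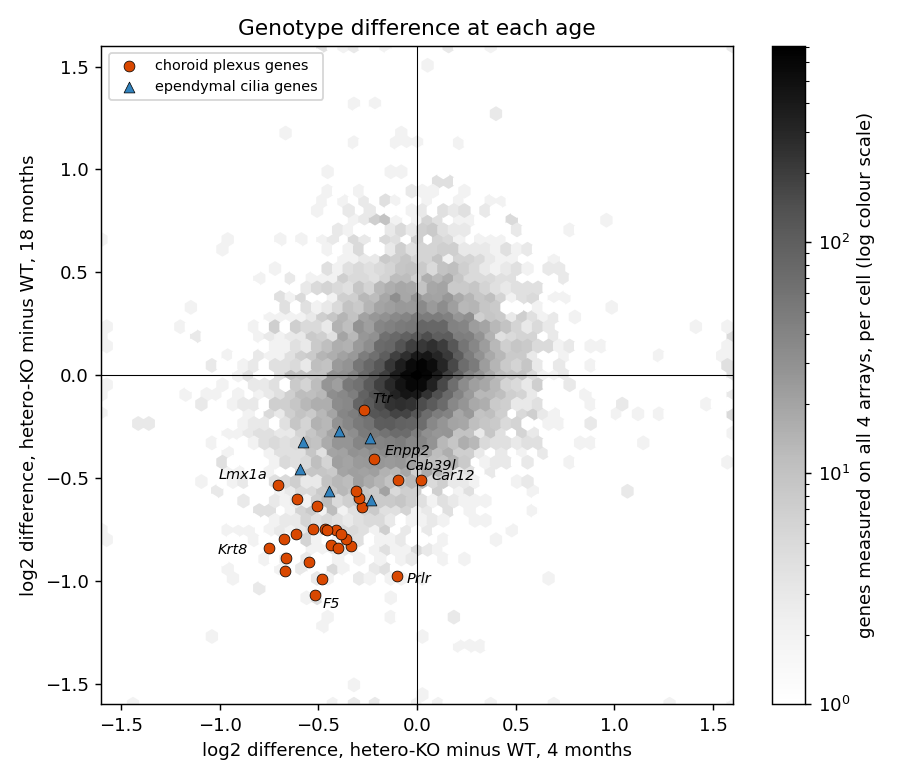
Log2 difference, hetero-KO minus WT, at 4 months (horizontal axis) and 18 months (vertical axis) for each choroid plexus gene (circles) and ependymal cilia gene (triangles), over the density of all 27357 genes measured on all 4 arrays (grey, values beyond the axis range set at its edge). All members but Car12 lie below 0 on both axes; Prlr, Car12 and Cab39l lie near 0 at 4 months only.

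The 6 ependymal cilia genes encode a master factor of motile ciliogenesis and parts of the axoneme or proteins of unsettled function found in ciliated cells. Foxj1, the forkhead factor that switches on motile cilia genes, had levels of 0.785 (WT) and 0.596 (hetero-KO) at 4 months, and of 0.794 and 0.657 at 18 months. Rsph1, a protein of the radial spoke head, had levels of 0.687 and 0.505, then 0.740 and 0.501. Tekt1, a tektin filament protein inside the doublet microtubules, had levels of 1.25 and 1.07, then 1.53 and 1.01. In all 3 genes both WT arrays were above both hetero-KO arrays, as they were for 21.1% of all genes.

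Ccdc153, a coiled-coil protein of ciliated cells, had levels of 2.08 (WT) and 1.38 (hetero-KO) at 4 months, and of 2.34 and 1.70 at 18 months, and gave the lowest adjusted p of the 6, 0.144 by limma, with a genotype log2 difference of −0.53 ± 0.06 (SE). Tmem212, a membrane protein enriched in ependyma, had levels of 1.13 and 0.754, then 1.22 and 0.972. Fam183b had levels of 2.32 and 1.96, then 3.05 and 2.47, and is the 1 cilia gene whose 18-month hetero-KO array was above the 4-month WT array. The fall was wider at 18 months for 3 of the 6 cilia genes (Rsph1, Fam183b and Tekt1) and wider at 4 months for the other three. Over all genes the difference was more negative at 18 months for 13200 of 27357.

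RFX factors work with FOXJ1 at the promoters of motile cilia genes, and OTX2 binds bicoid-type sites, so the member promoters were searched for a short motif of each. The RefSeq promoter table (GRCm38.p6, 250 bases before to 50 after each start) holds 26 of the 34 members, 22 of them choroid plexus and 4 cilia genes. The letters GTTGCC, the core of an RFX binding site, occurred on either strand in 3 of 5 promoters of cilia genes (3 of the 4 genes), in 4 of 29 promoters of choroid plexus genes and in 12.5% of all 32851 promoters. TAATCC, the OTX2 motif, occurred in 2 of 29 choroid plexus promoters, 0 of 5 cilia promoters and 7.06% of all, and GTAAACA, a FOXJ1 motif, in 1 of 29 (Prlr), 0 of 5 and 3.65% of all. Stretches upstream of the start are shown for the 3 cilia genes, which hold the match in common, and for Otx2 and Abca4, the 2 choroid plexus genes with an OTX2 motif. They are written 5′ to 3′ on the gene's strand with each match to a searched motif in capitals (GGCAAC and GGATTA are GTTGCC and TAATCC read on the opposite strand). A match is a run of letters and shows no binding.
Ccdc153, chr9:44240485-44240570: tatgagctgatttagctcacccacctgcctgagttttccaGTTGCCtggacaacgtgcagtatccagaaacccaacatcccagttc
Fam183b, chr11:58801982-58802067: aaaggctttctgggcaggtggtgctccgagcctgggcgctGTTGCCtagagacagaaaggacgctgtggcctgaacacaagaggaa
Tekt1, chr11:72361883-72361957: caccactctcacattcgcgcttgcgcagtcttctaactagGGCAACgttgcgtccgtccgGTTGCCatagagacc
Abca4, chr3:122044362-122044447: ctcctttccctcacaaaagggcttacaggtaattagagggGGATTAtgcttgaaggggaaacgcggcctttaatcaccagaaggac
Otx2, chr14:48665275-48665359: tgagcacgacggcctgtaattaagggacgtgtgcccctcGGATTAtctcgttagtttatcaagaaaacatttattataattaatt

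The cilia matches lie close to the start in Tekt1, 35 and 15 bases upstream, and in Fam183b, 67 and 16 bases upstream (the second is not shown), and 152 bases upstream in Ccdc153. Of the 3, Ccdc153 was lower by 1.51-fold and 1.37-fold in hetero-KO at 4 and 18 months, Fam183b by 1.18-fold and 1.23-fold, and Tekt1 by 1.18-fold and 1.52-fold, so that at 4 months genes with the match included the smallest and the largest difference of the 6. Rfx2, an RFX factor of ciliated cells, had levels of 0.133 (WT) and 0.0956 (hetero-KO) at 4 months, and of 0.138 and 0.0826 at 18 months.

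With age, the members were mostly higher in WT and went both ways in hetero-KO. In WT, 27 of 28 choroid plexus genes were higher at 18 than at 4 months, with a median log2 difference of 0.23, and all 6 cilia genes were, with a median of 0.14; the median over all genes was 0.04. In hetero-KO, 13 choroid plexus genes were higher and 15 lower, with a median of −0.03, and 4 of 6 cilia genes were higher, with a median of 0.22. Of all genes measured, 16502 of 28254 were higher at 18 months in WT and 16393 of 27593 in hetero-KO. No member reached 2-fold in either genotype, where 1.61% of all genes did in WT and 2.21% in hetero-KO. The WT array of 18 months was the highest of the 4 for 33 of 34 members, against 28.7% of all genes, and Lmx1a was the exception. These comparisons share arrays with the genotype comparisons above and are not separate evidence.

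**Figure D3:**
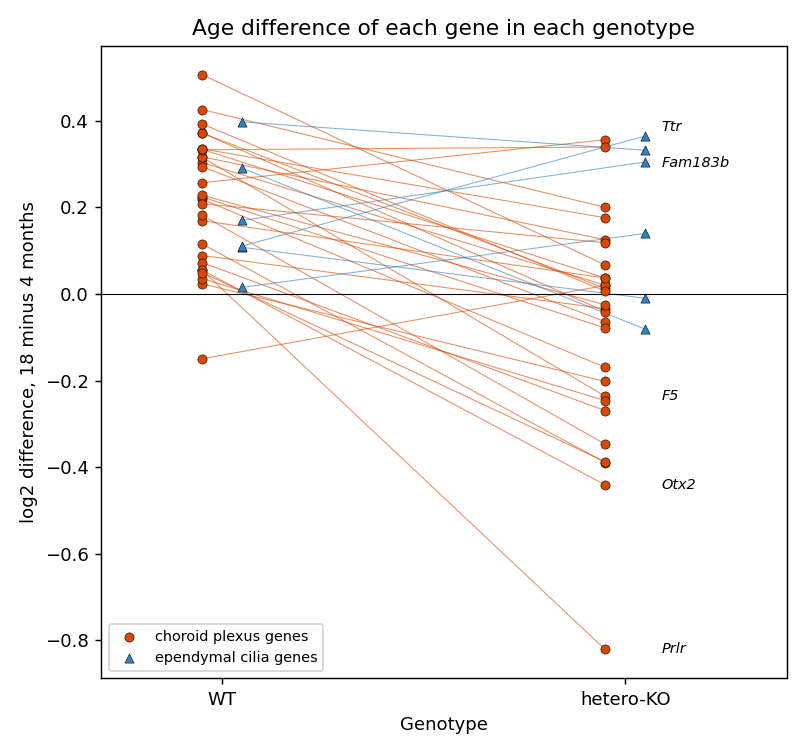
Log2 difference of 18 from 4 months for each choroid plexus gene (circles) and ependymal cilia gene (triangles) in WT (left) and in hetero-KO (right), with a line for each gene; each value is 1 array minus 1 array. In WT all genes but Lmx1a lie above 0, and in hetero-KO the choroid plexus genes spread from 0.36 for Ttr to −0.82 for Prlr.

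One member passed the additive limma test for age, against 1.76% of all genes. Ttr rose by 0.31 ± 0.04 (SE) on the log2 scale, with an adjusted p of 0.0497 by limma; 5 of the other settings tried ended this call. The dimmer Ttr probe was higher with age in WT and lower in hetero-KO by its signals given above. Fam183b, at 0.36 ± 0.05 (SE), had an adjusted p of 0.0506, and Steap1, at 0.34 ± 0.05 (SE), had 0.057. Prlr had the most negative age coefficient of the members, −0.38 ± 0.21 (SE), with an adjusted p of 0.347, and in hetero-KO its level went from 2.37 at 4 months to 1.34 at 18 months. In the 18-month columns of the authors' deposited table all 34 members were lower than at 4 months, so the direction with age depends on which source holds the 18-month samples.

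**Figure D4:**
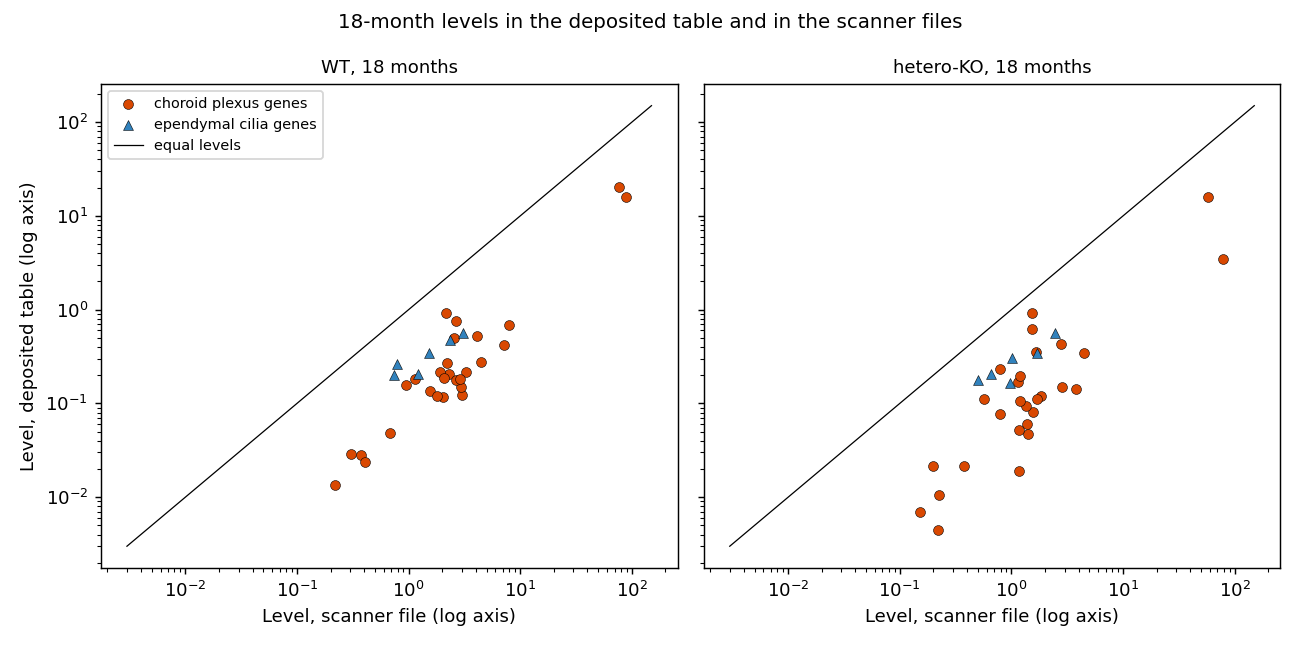
Level of each choroid plexus gene (circles) and ependymal cilia gene (triangles) at 18 months in the scanner files (horizontal, log axis) and in the authors' deposited table (vertical, log axis), for WT (left) and hetero-KO (right); the line marks equal levels. All 34 genes lie below the line in both panels, the choroid plexus genes by a median of 11.6-fold and 14.8-fold.

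The genotype difference of the members had the same direction in the table as in the scanner files. In the 18-month columns of the authors' deposited table, lower values in hetero-KO were found for 27 of 28 choroid plexus genes, with a median log2 difference of −0.83, and for all 6 cilia genes, with a median of −0.25. Over all genes in these columns, 13269 of 27357 were lower, with a median of 0.00. Eif2s3y also differed between these 2 columns, and the part of sex was not tested. Single genes differed in size: Ttr was at 15.9 (WT) and 3.52 (hetero-KO) in the authors' deposited table, a difference of −2.18. Slc4a5 was at 0.118 and 0.0192 there, and Cldn2 at 0.0284 and 0.00449, both differing by more than 2.5 on the log2 scale in the authors' deposited table. Car12 was the exception in the authors' deposited table, at 0.181 (WT) and 0.232 (hetero-KO). Cldn2's hetero-KO level in the authors' deposited table lies under the lowest levels well above background in the scanner files, 0.0058 to 0.0083.

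Different probes of a gene mostly gave the same direction. Of 59 probes well above background on all arrays, 55 were lower in hetero-KO at 4 months and 58 at 18 months. For the 17 genes with more than 1 such probe, the probes of a gene ranged over a median of 0.11 at 4 months and 0.24 at 18 months. Otx2 had the widest range at 4 months, 0.61 over 3 probes, and after Abca4 Ttr had the widest at 18 months, 0.72 over 2 probes.

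Other genes of the same cell types were lower too. Of 21 further choroid plexus genes, 20 were lower in hetero-KO at 4 months and 19 at 18 months, with medians of −0.39 and −0.56. Of all genes, 55.6% and 52.0% were lower. None of the 21 passed the limma test for genotype, and 18 were lower at an unadjusted p under 0.05, against 6.29% of all genes. In the 18-month columns of the authors' deposited table, 17 of the 21 were lower in hetero-KO, with a median of −0.28, against 13269 of 27357 genes in all. Wfdc2, a secreted whey-acidic protein, went from 3.40 in WT to 1.54 in hetero-KO at 18 months, and Htr2c, the serotonin receptor abundant in this epithelium, from 3.40 to 1.94. At 4 months Htr2c was at 3.21 and 3.06, which is within the spot error, as for Prlr. Cldn3, a tight junction claudin, differed by −0.58 and −0.93, Slco1a5, an organic anion transporter, by −0.59 and −0.74, and Sema3b, a semaphorin, by −0.55 and −0.50.

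Of 40 further motile cilia genes, 37 were lower at each age, against 55.6% of all genes at 4 months and 52.0% at 18 months. Their medians were −0.35 at 4 months and −0.38 at 18 months. None passed for genotype by limma, and 29 were lower at an unadjusted p under 0.05, against 6.29% of all genes. The authors' deposited table has 27 of the 40 lower at 18 months, with a median of −0.12, against 13269 of 27357 genes in all. Spag16, a protein of the central pair, differed by −0.79 and −1.15, and Daw1, an assembly factor for dynein arms, by −0.40 and −1.26. Daw1 was dim, at 0.0356 (WT) and 0.0149 (hetero-KO) at 18 months, where the lowest levels well above background were 0.0076 and 0.0083. Its spot error at 18 months was 0.29. Cdhr3, a cadherin of airway ciliated cells, went the other way, at 0.232 (WT) and 0.375 (hetero-KO) at 4 months, then 0.228 and 0.495 at 18 months. For age, 2 of the 40 rose by limma, against 340 of 29067 genes in all. They were Cdhr4 by 0.60 ± 0.06 (SE, adjusted p 0.0422, limma) and Tppp3 by 0.49 ± 0.06 (SE, adjusted p 0.0461, limma). Dnah9, a dynein heavy chain, had 0.47 and an adjusted p of 0.0618 by limma. In the authors' deposited table, 38 of the 40 in WT and 37 in hetero-KO were lower at 18 than at 4 months. Over all genes there, 15960 and 14707 of 27357 were. The 7 regulators of multiciliated cell fate had medians of −0.26 and −0.21 (−0.13 at 18 months in the authors' deposited table), with Gmnc, the geminin-family gene that starts the programme, at −0.43 and −0.94, Rfx2 at −0.48 and −0.74 and Trp73 at −0.26 and −0.21. Mcidas, a partner of Gmnc, had a bright and a dim probe with signals of 60816 to 64867 and of 22.2 to 42.7 over the 4 arrays, so its level is uncertain.

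**Figure D5:**
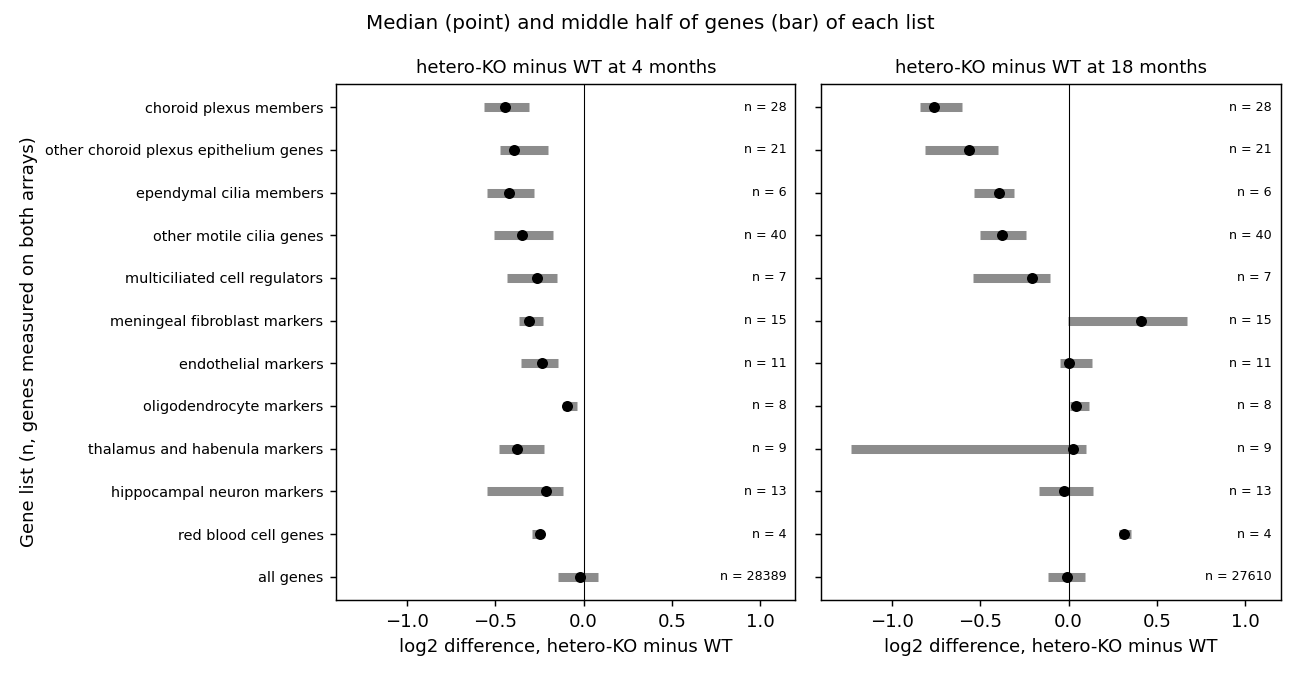
Median (point) and middle 50% (grey bar) of the log2 difference (hetero-KO minus WT) over the genes of each list measured on both arrays (n beside each bar), at 4 months (left) and 18 months (right). The choroid plexus and cilia lists lie below 0 at both ages; the lists of meningeal, endothelial and red blood cell genes lie below 0 at 4 months and at or above 0 at 18 months on these scanner arrays; the table's 18-month columns put those 3 below 0.

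Markers of other tissues and cell types, some of them at the border of the hippocampus, differed between the pools as well. Their part in the member differences was not tested. At 4 months all 15 meningeal fibroblast markers, all 11 endothelial markers, all 4 red blood cell genes and all 9 thalamus and habenula markers were lower in hetero-KO, with medians of −0.31, −0.23, −0.25 and −0.38. Of all genes measured, 55.6% were lower at this age. The summed level of the meningeal markers was 27.6 (WT) and 22.2 (hetero-KO) at 4 months, against 22.1 and 23.4 at 18 months. At 18 months 11 of the 15 were higher in hetero-KO, with a median of 0.41, while the choroid plexus genes were lower. In the 18-month columns of the authors' deposited table the direction of the meningeal markers turned, with all 15 lower in hetero-KO and a median of −0.37. By the scanner files at 18 months Slc6a13, a GABA transporter of the meninges, was at 0.575 in WT and at 1.26 in hetero-KO. Aldh1a2, which makes retinoic acid there, was at 0.517 and 1.1 on the same arrays. At 4 months both were lower in hetero-KO, Slc6a13 at 1.03 (WT) and 0.829 (hetero-KO) and Aldh1a2 at 0.797 and 0.644. Igfbp2, which the choroid plexus makes too, was lower at both ages, by −0.37 and −0.59. On the 18-month scanner arrays all 4 red blood cell genes were higher in hetero-KO, with a median of 0.31, and Hba-a1, an alpha globin, was at 36.1 (WT) and 45.6 (hetero-KO). The authors' deposited table has all 4 lower in hetero-KO at 18 months, with a median of −0.18, and a median of −0.10 for the endothelial markers, against 0.00 on the scanner arrays.

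The thalamus and habenula markers were lower at 18 months in both genotypes, with medians of −2.02 in WT and −1.86 in hetero-KO, and 7 of 9 fell by limma, against 0.592% of all genes. The medians in the authors' deposited table were −2.20 and −2.15. For hetero-KO against WT at 18 months, the median of these markers was 0.02 on the scanner arrays and −0.62 in the authors' deposited table. Synpo2, a synaptopodin family gene of the thalamus, had levels of 2.29 and 1.76 at 4 months and of 0.247 and 0.251 at 18 months. Tnnt1, a troponin transcribed in thalamus, had levels of 5.47 and 5.05, then 0.701 and 0.800. Between the ages the pools thus held different amounts of RNA of genes that mark a neighbouring region. On the scanner arrays the age medians over all members, 0.22 in WT and −0.002 in hetero-KO, were far smaller than those of the thalamus and habenula markers. In the authors' deposited table the members' age medians were −3.23 in WT and −3.75 in hetero-KO, larger falls than those of these markers there. The markers of hippocampal neurons themselves were all measured on all 4 arrays, with medians of −0.21 and −0.02 for hetero-KO against WT at 4 and 18 months. In the authors' deposited table their 18-month median was 0.12, with 3 of the 13 lower in hetero-KO. Of the 13, 8 were lower in hetero-KO at both ages, against 34.9% of all genes, and 2 were higher at both. Wfs1, a gene of CA1 pyramidal cells, was at 8.50 (WT) and 5.18 (hetero-KO) at 4 months, then 10.4 and 6.15 at 18 months (adjusted p 0.0658, limma). Dsp, a desmosomal gene of the dentate gyrus, differed by −0.84 and −0.70. The 2 higher genes were Grik4, at 0.27 and 0.14, and Fibcd1, at 0.21 and 0.15.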

How the data were processed

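Spot intensity was deposited in scanner files, 1 array per group. Background correction was done in Agilent Feature Extraction 11.5.1.1 with probes of mouse build mm9, per the file headers, and per the labels' protocols RNA of 3 samples was pooled per array. The authors' deposited table holds a linear ratio to each array's 75th percentile. It is neither logged nor centred per gene, and its column medians were 0.107, 0.103, 0.0998 and 0.0987 (WT and hetero-KO at 4, then at 18 months). The origin of its 18-month columns is unknown.

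Here the log2 processed signal was scaled by subtracting the 75th percentile (non-control, unflagged spots) of its own array. Spots of a probe were averaged, a gene took its probe of highest mean level, and measured means at least 50% of spots well above background. Symbols were updated through RefSeq (GRCm38.p6, names and promoters alone): 32989 of 56605 probes matched and 1534 symbols changed. Of 129 genes in the other lists, 128 were found. The additive fit (limma 3.58.1, R 4.3.3, eBayes with a variance trend, Benjamini-Hochberg at 0.05) took genes measured on at least 2 arrays and was tested on simulated data. Precision is limited by the number of arrays.

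The named genes are all members and, of each other list, the 3 genes with the largest genotype and the 3 with the largest age coefficients, of which some are left out for space. The members and lists were chosen with earlier results of these data known. Alternatives tried were normexp background correction with an offset of 50, quantile normalization, the mean of probes, other filters, no variance trend, 1 factor alone, and the deposited table.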

Additional observations from a re-analysis of the deposited data

Results flagged for a closer look

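F5, coagulation factor V of the choroid plexus, moved in opposite directions with age in the genotypes, and both differences exceeded the spot error: it was higher at 18 than at 4 months in WT, by 0.32 on the log2 scale, and lower in hetero-KO, by −0.24. With 1 array per group the difference between genotypes was not tested, and this rule was added after the values were seen. No member had genotype differences of opposite sign at 4 and 18 months that both exceeded the spot error.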

How the results depend on the processing

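The median genotype differences of the choroid plexus and cilia genes moved by less than the spot error, and none of the 34 members passed for genotype, under every alternative tried. The age coefficient changed sign for Clic6 (−0.043) and Enpp2 (−0.026) with quantile normalization and for Abca4 (−0.032) with the mean of probes, and the genotype coefficient for Car12 (0.19) with the 18-month columns of the deposited table, an alternative chosen after seeing the data. With those columns the age medians were −3.45 in WT and −3.94 in hetero-KO for choroid plexus genes and −1.94 and −1.82 for cilia genes. The sign of 25 members' age coefficients turned, and all 34 passed for age as lower, as did 5277 of 29067 genes in all. The number of members that passed for age, 1 as reported, was 2 with normexp and 3 with genes measured on all arrays, and 0 with quantile normalization, the mean of probes, no filter, no variance trend or age alone. Over all genes, 3 were higher and 0 lower for genotype, against 7 and 1 with normexp, 8 and 2 on all arrays, 1 and 0 with the mean of probes or genotype alone, 1 and 8 with the deposited columns, and 0 with no filter or no trend by limma (1517 higher and 1948 lower, and 788 and 2052, at an unadjusted p under 0.05). For age, 340 rose and 172 fell, against 53 and 115 with quantile normalization, 767 and 234 with normexp, 640 and 227 on all arrays, 4 and 9 with the mean of probes, 55 and 67 with age alone, 4606 and 5277 with the deposited columns, and 0 with no filter or no trend (5034 higher and 2062 lower, and 2772 and 1747, at an unadjusted p under 0.05). The cause of these changes was not tested. No paired analysis was possible because each group holds 1 array and replicate numbers only name it. Dim members such as Lmx1a, Oca2 and Tmem72 lie well over the lowest levels above background.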
